A study of Mus musculus with 454 samples.

Results

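The 8 mouse genes Gabra6, Fat2, Cbln3, Pcp2, Gdf10, Crtam, Mybpc1 and Myl4, whose transcripts are known from the cerebellum and from muscle or lymphocytes were followed through libraries of the ventral tegmental area (VTA), the midbrain nucleus whose dopamine neurons signal reward. They are 8 of the 43346 genes in the deposited count table, and were chosen by their fitted differences between chronic cocaine and saline in the VTA, where they appeared together, so that comparison is described here and not tested. Their levels in single libraries, their co-variation, their levels in 3 other regions and the other contrasts are reported beside it.

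The study set out to relate social isolation in adolescence to sex differences in reward, with the medial amygdala as the region of interest. It sequenced polyadenylated RNA from pieces of mouse brain of 4 regions: the VTA, the amygdala (AMY in the labels), the nucleus accumbens (Nac, 112 libraries) and the prefrontal cortex (PFC, 112 libraries). Libraries were labelled by sex, by housing (isolated or group-housed) and by injection (cocaine at 7.5 mg/kg or saline, acute or chronic), which gives 16 groups of 6 to 8 VTA libraries. The VTA held 29 acute cocaine, 28 acute saline, 29 chronic cocaine and 29 chronic saline libraries, of which 56 came from isolated and 59 from group-housed mice, and 58 from females and 57 from males. Strain and age are not stated in the labels, which also do not say that libraries of a group are separate animals, so p-values measure the spread between these libraries.

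The cerebellum is built from a few cell types with distinctive transcripts. Granule cells, its small and very numerous glutamatergic neurons, make Gabra6, the alpha6 subunit of the GABA-A receptor, Fat2, an atypical cadherin found along their parallel fibres, and Cbln3, a cerebellin secreted in complex with Cbln1 toward parallel fibre synapses. Purkinje cells, the output neurons of the cerebellar cortex, make Pcp2, a small modulator of G protein signalling. Bergmann glia, the astrocytes that surround Purkinje cells, are known for Gdf10, a ligand of the bone morphogenetic protein family. The other 3 genes are known mainly from other tissues: Crtam encodes an immunoglobulin-type receptor of activated T and natural killer cells, Mybpc1 the slow skeletal muscle form of myosin-binding protein C, and Myl4 the atrial and embryonic myosin light chain.

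The start regions of 1 gene from each of the listed cerebellar cell types, with Cbln3 as another granule cell gene, are shown because these known cerebellar genes were high in the libraries described here. Each runs from 250 bases before to 50 bases after the start, 5′ to 3′ on the gene's strand, from RefSeq on GRCm38.p6, which had entries for 7 of the 8 genes. The windows are chr11:42321023-42321322 (minus strand) for Gabra6, chr14:55884207-55884506 (minus) for Cbln3, chr8:3625498-3625797 (minus, the first of 4 annotated starts) for Pcp2 and chr14:33923337-33923636 (plus) for Gdf10. Capitals mark 3 short motifs searched on both strands, which do not overlap here: CANNTG, the E-box of basic helix-loop-helix factors; TTGGC or its complement GCCAA, a core motif of nuclear factor I; and AGGTCA or TGACCT, a core motif of nuclear receptors.
Gabra6: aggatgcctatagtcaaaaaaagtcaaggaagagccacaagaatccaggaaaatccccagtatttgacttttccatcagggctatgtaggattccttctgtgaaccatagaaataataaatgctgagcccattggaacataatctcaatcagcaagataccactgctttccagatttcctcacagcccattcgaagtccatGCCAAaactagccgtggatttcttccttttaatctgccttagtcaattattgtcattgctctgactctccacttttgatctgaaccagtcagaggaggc
Cbln3: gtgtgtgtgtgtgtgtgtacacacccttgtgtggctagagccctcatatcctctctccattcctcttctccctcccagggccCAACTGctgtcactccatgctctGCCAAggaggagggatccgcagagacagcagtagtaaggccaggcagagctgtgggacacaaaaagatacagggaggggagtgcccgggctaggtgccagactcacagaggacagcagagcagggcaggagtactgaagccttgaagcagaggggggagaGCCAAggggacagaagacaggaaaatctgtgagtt
Pcp2: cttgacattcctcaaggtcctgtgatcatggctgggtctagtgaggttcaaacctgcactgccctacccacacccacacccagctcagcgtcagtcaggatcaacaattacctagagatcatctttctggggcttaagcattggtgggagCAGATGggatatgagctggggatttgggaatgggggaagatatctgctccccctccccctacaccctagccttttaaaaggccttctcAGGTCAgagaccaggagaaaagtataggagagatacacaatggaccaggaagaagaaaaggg
Gdf10: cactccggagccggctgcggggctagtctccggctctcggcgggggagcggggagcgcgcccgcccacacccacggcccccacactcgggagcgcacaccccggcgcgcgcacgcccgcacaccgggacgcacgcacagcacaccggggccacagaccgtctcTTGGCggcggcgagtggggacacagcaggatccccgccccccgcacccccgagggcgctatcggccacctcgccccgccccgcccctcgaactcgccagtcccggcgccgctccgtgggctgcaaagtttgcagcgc
Gabra6 and Gdf10 each held TTGGC at 1 place, Cbln3 held TTGGC at 2 places and CANNTG at 1, and Pcp2 held CANNTG and AGGTCA at 1 place each. Of 32544 mouse start regions of the same length, 72.3% held CANNTG, 46.9% held TTGGC and 16.2% held AGGTCA, so these matches are a description of the letters and no more.

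In the GENCODE M21 models of GRCm38, the other 4 genes lie at chr11:55250609-55336564 (minus strand, Fat2), chr9:40969691-41004628 (minus, Crtam), chr10:88518279-88605152 (minus, Mybpc1) and chr11:104550663-104595753 (plus, Myl4). Exon lengths and overlaps are taken from these models. The annotation release behind the submitters' counts is not given in the sources used here.

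VTA libraries held between 13.99 and 51.34 M counted reads (M stands for mega-counts), the middle library at 21.58 M, and all libraries between 11.21 and 52.34 M. Levels are given as CPM, reads per mega-count of the library, after trimmed-mean scaling over the libraries of all regions. Dopamine neuron markers were high throughout the VTA, with a summed level of 10 markers between 1385 and 9140 CPM. None of the VTA libraries had 5% or more of the transcripts of the opposite sex, and none stood apart in a principal component analysis.

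In a typical VTA library the 8 transcripts were near the limit of detection. Gabra6 had a median of 0.127 CPM, or 3 reads, and was at 0 in 20 libraries. Fat2 had a median of 0.260 CPM, Pcp2 of 0.265 CPM, Mybpc1 of 0.260 CPM and Crtam of 0.0976 CPM, which are 6 reads or fewer. Cbln3, Gdf10 and Myl4 were above that floor in ordinary libraries, with medians of 1.41, 1.43 and 1.29 CPM, or 29, 31 and 27 reads. Per kilobase of exon, the median levels were 0.290 CPM for Cbln3, 0.278 for Myl4, 0.275 for Gdf10, 0.145 for Pcp2, 0.0573 for Mybpc1, 0.0510 for Gabra6, 0.0190 for Crtam and 0.0179 for Fat2.

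Counting libraries above 1 CPM separates the genes into those 3 and the other 5. Cbln3 passed 1 CPM in 92 VTA libraries, Gdf10 in 88 and Myl4 in 105. Fat2 passed it in 11 libraries, Gabra6 in 4, and Pcp2, Crtam and Mybpc1 in 2 each. In 54 libraries 3 of the 8 genes were above 1 CPM, in 45 libraries 2 were, in 7 libraries 4 were and in 6 libraries 1 was. The remaining 3 libraries had 5, 7 and 8 genes above 1 CPM.

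**Figure D1:**
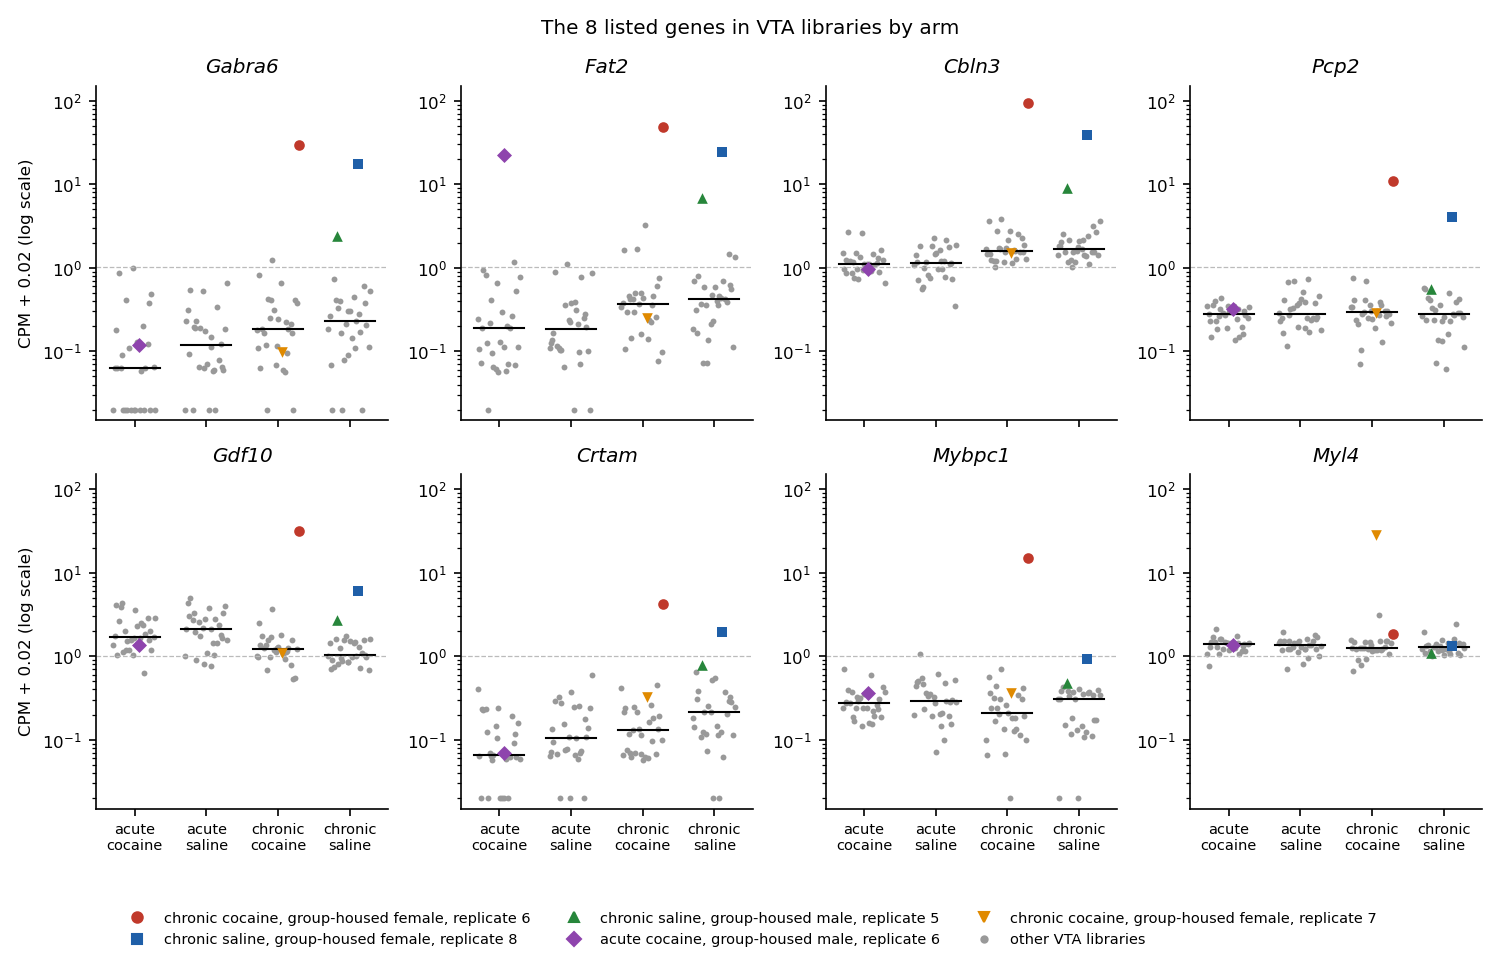
CPM of each of the 8 genes (log axis, 0.02 CPM added) in every VTA library, by cocaine or saline arm and by acute or chronic schedule; each point is 1 library, black bars are medians, the dashed line marks 1 CPM, and 5 libraries described in the text have their own symbols. For 6 genes the highest points are 1 chronic cocaine library and 1 chronic saline library, while the highest Myl4 library (28.0 CPM) is another one.

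The high values lay in 2 libraries. The library with all 8 genes above 1 CPM was replicate 6 of the group-housed female chronic cocaine group (cocaine replicate 6, 36.405 M reads), and the library with 7 of them was replicate 8 of the group-housed female chronic saline group (saline replicate 8, 20.859 M reads). Both are chronic, female and group-housed, and they lie in opposite treatment arms.

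The granule cell genes stood out most. Gabra6 was at 29.5 CPM in cocaine replicate 6 and 17.3 CPM in saline replicate 8, against a median of 0.126 CPM and a highest value of 2.38 CPM in the other VTA libraries. Fat2 was at 47.8 CPM in cocaine replicate 6 and 24.2 CPM in saline replicate 8, against a median of 0.243 CPM, with 1 further library at 22.3 CPM. Cbln3 was at 93.9 CPM in cocaine replicate 6 and 38.6 CPM in saline replicate 8, against a median of 1.41 CPM and a highest value of 9.03 CPM. These are 1088, 1762 and 3461 reads in cocaine replicate 6 and 366, 513 and 819 reads in saline replicate 8, so counting error is small beside the distance from the rest. For all 3 genes the same pair of libraries ranked first and second of all VTA libraries, with cocaine replicate 6 above saline replicate 8.

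The Purkinje cell and Bergmann glia genes followed at lower levels. Pcp2 was at 10.9 CPM in cocaine replicate 6 and 4.06 CPM in saline replicate 8, against a highest value of 0.743 CPM in the other VTA libraries. About 51.5% of the exon bases of Pcp2 overlap Pet100 on the opposite strand, and the strand setting of the counting is not given in the sources used here, so Pcp2 counts are uncertain to that extent. Gdf10 was at 31.1 CPM in cocaine replicate 6 and 6.09 CPM in saline replicate 8, against a median of 1.42 CPM and a highest value of 4.95 CPM. For Gdf10 saline replicate 8 stands just above the rest, whereas cocaine replicate 6 is far from them.

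The 3 genes known from other tissues behaved differently from each other. Crtam was at 4.15 CPM (153 reads) in cocaine replicate 6 and 1.93 CPM (41 reads) in saline replicate 8, against a highest value of 0.769 CPM in the rest. Mybpc1 was at 14.8 CPM (547 reads) in cocaine replicate 6 but at 0.896 CPM (19 reads) in saline replicate 8, below the highest value of the rest, 1.03 CPM. Myl4 was at 1.82 CPM in cocaine replicate 6 and 1.32 CPM in saline replicate 8, against a median of 1.29 CPM, so it was close to its usual level in both. In these libraries the 5 known cerebellar genes and Crtam were thus high together, Mybpc1 was high in 1 of them, and the levels of Myl4 went against a cerebellar label.

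As a fold over the median of the other VTA libraries, cocaine replicate 6 was 235-fold higher for Gabra6, 197-fold for Fat2, 66.6-fold for Cbln3, 41.5-fold for Pcp2, 22.0-fold for Gdf10, 42.8-fold for Crtam, 57.2-fold for Mybpc1 and 1.41-fold for Myl4. Saline replicate 8 was 138-fold higher for Gabra6, 99.8-fold for Fat2, 27.4-fold for Cbln3, 15.5-fold for Pcp2, 4.30-fold for Gdf10, 19.9-fold for Crtam, 3.46-fold for Mybpc1 and 1.03-fold for Myl4. The order of the cerebellar genes, granule cell genes first and Gdf10 last, was the same in both. Medians of a few reads make the largest of these folds imprecise. On a log2 scale with 0.1 CPM added, 7 of the 8 genes were more than 2-fold above the median in cocaine replicate 6, where 0.939% of the 17144 genes tested were, and 7 of 8 in saline replicate 8, where 0.852% were.

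The proportions of the transcripts to each other were alike for some genes and not for others. Relative to Cbln3 counts, Pcp2 stood at 0.116 in cocaine replicate 6 (95% exact interval 0.104 to 0.129) and at 0.105 in saline replicate 8 (0.083 to 0.131), and Crtam stood at 0.044 (0.037 to 0.052) in cocaine replicate 6 and 0.050 (0.036 to 0.069) in saline replicate 8, with intervals that overlap. Gabra6 stood at 0.314 (0.293 to 0.337) in cocaine replicate 6 and 0.447 (0.394 to 0.506) in saline replicate 8, and Fat2 at 0.509 (0.480 to 0.539) in cocaine replicate 6 and 0.626 (0.560 to 0.700) in saline replicate 8. Gabra6 and Fat2 thus stood at a larger proportion of Cbln3 in saline replicate 8. Gdf10 stood at 0.331 (0.310 to 0.354) in cocaine replicate 6 and 0.158 (0.130 to 0.190) in saline replicate 8, and Mybpc1 at 0.158 (0.144 to 0.173) in cocaine replicate 6 and 0.023 (0.014 to 0.036) in saline replicate 8. These intervals cover counting error only.

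Across the 17144 genes tested, 28 had cocaine replicate 6 and saline replicate 8 as their 2 highest VTA libraries, and 21 of the 28 were over 2-fold above the median in both. Among them are 6 of the 8 listed genes, all but Mybpc1 and Myl4. The others include Neurod1, a transcription factor of granule cells (17.8 CPM in cocaine replicate 6 and 9.34 CPM in saline replicate 8, median 1.16 CPM, highest of the rest 8.18 CPM). Ppp1r17, a phosphatase inhibitor of Purkinje cells, was at 13.7 CPM in cocaine replicate 6 and 5.57 CPM in saline replicate 8 (median 1.11 CPM, highest of the rest 3.78 CPM). Skor2, a transcriptional corepressor of Purkinje cells, was at 1.17 CPM in cocaine replicate 6 and 0.849 CPM in saline replicate 8 (median 0.0970 CPM, highest of the rest 0.841 CPM). For Neurod1 and Skor2, saline replicate 8 thus stood just above the rest. Car8, a carbonic anhydrase relative abundant in Purkinje cells, was at 131 CPM in cocaine replicate 6 and 59.4 CPM in saline replicate 8 (highest of the rest 36.6 CPM) and is named here after its values were seen. The 28 also hold genes on none of the marker lists read below. Il20rb was at 6.68 CPM in cocaine replicate 6 and 2.17 CPM in saline replicate 8 (highest of the rest 1.21 CPM). Dele1 was at 41.5 CPM in cocaine replicate 6 and 42.0 CPM in saline replicate 8 (highest of the rest 41.3 CPM). Both are likewise named after their values were seen.

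Lists of other marker genes were read in the same libraries. Of 12 other granule cell genes, 6 were over 2-fold above the median in cocaine replicate 6 and 4 in saline replicate 8, and of 14 other Purkinje cell genes, 9 were in cocaine replicate 6 and 4 in saline replicate 8. Zic1, a zinc finger factor of granule cells and of precerebellar nuclei, was at 62.0 CPM in cocaine replicate 6 and 27.4 CPM in saline replicate 8 (median 5.76 CPM), and Gabrd, the delta subunit of extrasynaptic GABA-A receptors, at 15.4 CPM in cocaine replicate 6 and 5.80 CPM in saline replicate 8 (median 0.817 CPM). Zic4, a relative of Zic1, was at 6.46 CPM in cocaine replicate 6 and 2.22 CPM in saline replicate 8 (median 1.25 CPM), so the granule cell list was higher in cocaine replicate 6 for each of these genes. Cbln1, the partner of Cbln3, was at 92.1 CPM in cocaine replicate 6 and 69.4 CPM in saline replicate 8 (median 73.5 CPM), and did not pass 2-fold in either. Homer3, a postsynaptic scaffold of Purkinje cells, was at 18.3 CPM in cocaine replicate 6 and 11.3 CPM in saline replicate 8 (median 5.97 CPM). Gng13, a G protein gamma subunit, was at 7.98 CPM in cocaine replicate 6 and 4.10 CPM in saline replicate 8 (median 1.83 CPM). None of 4 other Bergmann glia genes passed 2-fold in either library, with Hopx, a homeodomain-only protein of astrocytes, nearest at 18.4 CPM in cocaine replicate 6 and 17.1 CPM in saline replicate 8 (median 9.34 CPM). Summed over the lists, other granule cell genes reached 742 CPM in cocaine replicate 6 and 499.9 CPM in saline replicate 8, against 346 to 588 CPM in the rest. Other Purkinje cell genes reached 1320 CPM in cocaine replicate 6 and 837 CPM in saline replicate 8, against 501 to 890 CPM in the rest, so cocaine replicate 6 lies beyond the rest on both sums and saline replicate 8 within them. A list of 6 genes of other cerebellar neurons did not follow. It summed to 53.9 CPM in cocaine replicate 6 and 95.3 CPM in saline replicate 8. The rest had a median of 65.0 CPM, between 24.4 and 200 CPM. Of its 4 tested genes, 1 was over 2-fold higher in each library and 0 were over 2-fold lower.

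Markers of other sources moved with these libraries to different degrees. Dopamine neuron markers summed to 7934 CPM in cocaine replicate 6 and 4326 CPM in saline replicate 8, inside the range of the rest and with 0 of 10 over 2-fold away in either. Serotonin neuron markers summed to 20.2 CPM in cocaine replicate 6 and 192 CPM in saline replicate 8 (median of the rest 11.6 CPM, 2.02 to 966), and all 4 were over 2-fold higher in saline replicate 8. Pituitary hormone genes, a list added after the values were seen, summed to 4.07 CPM in cocaine replicate 6 and 752 CPM in saline replicate 8 (median of the rest 2.99 CPM, 1.16 to 1276), led by Prl, prolactin, at 582 CPM and Gh, growth hormone, at 152 CPM in saline replicate 8. Noradrenaline neuron markers summed to 0.0271 CPM in cocaine replicate 6 and were at 0 in saline replicate 8. None of 5 tested striated muscle genes and neither of 2 tested T cell genes passed 2-fold in either library, beside the high Mybpc1 and Crtam. The part of these other tissues in the values was not tested, and in RNA from pieces of tissue fewer cells of a type and less RNA per cell cannot be told apart.

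A further library held the granule cell genes at an intermediate level. In group-housed male chronic saline replicate 5, Gabra6 was at 2.38 CPM, Fat2 at 6.92 CPM and Cbln3 at 9.03 CPM, and 5 of the 8 genes passed 1 CPM. Pcp2 was at 0.538 CPM, Mybpc1 at 0.461 CPM and Myl4 at 1.08 CPM there, all inside the range of ordinary libraries. In it 4 of the 8 genes were over 2-fold above the median, with 1.29% of all genes tested. Serotonin neuron markers (168 CPM in sum, 4 of 4 over 2-fold) and pituitary genes (273 CPM, 5 of 6) were high there too. Of 12 other granule cell genes 5 passed 2-fold, but their list summed to 387 CPM, below the median of the rest, 455 CPM. Of 14 other Purkinje cell genes 1 was over 2-fold higher and 1 lower, with a sum of 622 CPM (median of the rest 726 CPM). Dopamine neuron markers summed to 2942 CPM (median of the rest 4575 CPM), with 2 of 10 over 2-fold lower.

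Fat2 and Myl4 each had a further high library in which the other listed cerebellar genes were at ordinary levels. In group-housed male acute cocaine replicate 6, Fat2 reached 22.3 CPM (448 reads) while Gabra6 was at 0.0993 CPM and Cbln3 at 0.944 CPM. That is 1 of the 8 genes over 2-fold, with 1.44% of all genes tested. In the same library Barhl1, a homeobox factor of granule cells and precerebellar neurons, was at 9.24 CPM, Zic1 at 35.8 CPM and Slc17a7, the vesicular glutamate transporter of granule, cortical and pontine neurons, at 124 CPM; these 3 are named after their values were seen. Over the whole lists, 5 of 12 other granule cell genes were over 2-fold higher there, and of 14 other Purkinje cell genes 0 were higher and 1 was lower. In group-housed female chronic cocaine replicate 7, Myl4 reached 28.0 CPM (727 reads), and there 0.566% of all genes tested and 2 of the 8, Myl4 and Crtam, passed 2-fold. Myl7 and Actc1, a myosin light chain and an actin of heart muscle, were at 18.1 and 17.5 CPM in that library, against medians of 0.0485 and 0.0866 CPM, the highest of all VTA libraries, and are likewise named after their values were seen. Neither passed the filter on low counts, and 0 of the 5 striated muscle genes that did were over 2-fold higher there, while the whole list summed to 57.9 CPM, the highest of all VTA libraries (median 18.2 CPM, lowest 13.4 CPM). Serotonin neuron markers summed to 67.9 CPM in that library, with 3 of 4 over 2-fold higher, and their part in the result was not tested. Myl4 and the cerebellar genes were therefore high in different libraries of 1 group.

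**Figure D2:**
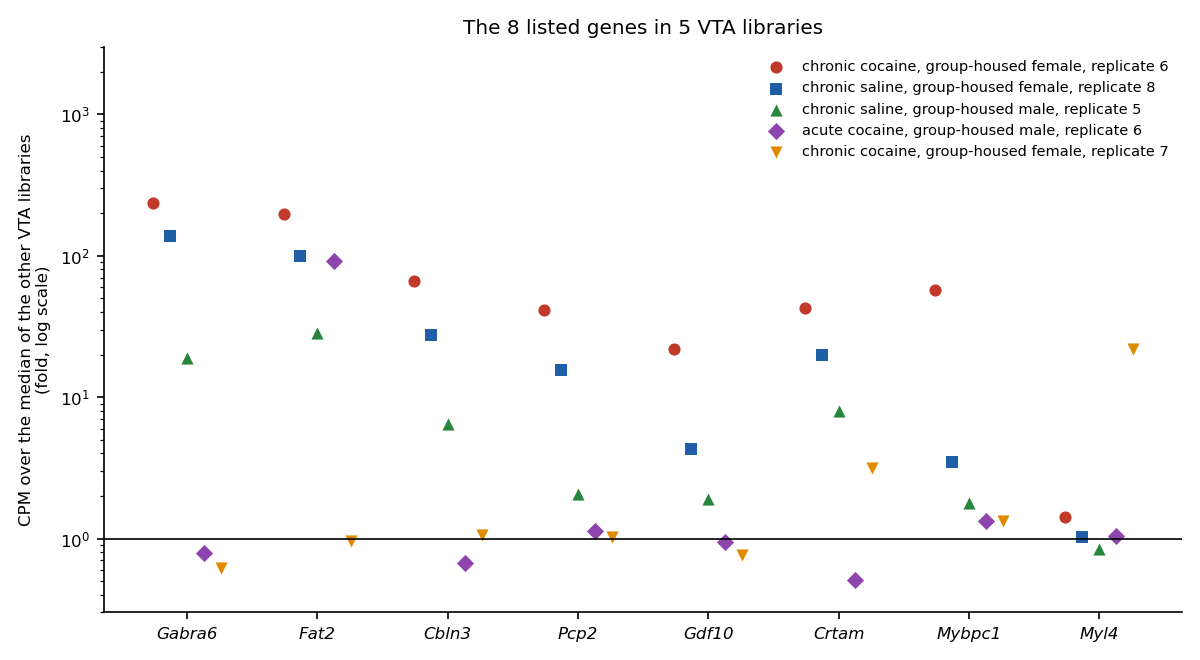
CPM in each of 5 VTA libraries over the median of the VTA libraries other than cocaine replicate 6 and saline replicate 8 (fold, log axis), for each of the 8 genes; each symbol is 1 library, and the line marks 1. Gabra6 is 235-fold higher in cocaine replicate 6 and 138-fold in saline replicate 8, Fat2 is high without Gabra6 in the acute cocaine library, and Myl4 is high in cocaine replicate 7.

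Libraries with the same number in their titles as these 2 were looked up in the other regions, where 86 of 129 numbers occur in all 4 regions and none differs in sex, housing or treatment. For the number of cocaine replicate 6, Gabra6 was at 0.134 CPM in AMY, 0 in Nac and 0.0891 CPM in PFC, and Cbln3 at 0.940, 0.273 and 0.980 CPM. For the number of saline replicate 8, Gabra6 was at 0.0576 CPM in AMY and 0 in Nac and PFC, and Cbln3 at 0.863, 0.337 and 0.454 CPM. The high values were thus confined to the VTA library of each number for these 2 genes. Myl4 was at 58.8 CPM in the PFC library with the number of saline replicate 8, the highest of 112.

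Over all VTA libraries of the 4 arms, with each group's mean removed on a log2 scale (prior count 2), the 28 pairs among the 8 genes had a median Spearman correlation of 0.188, between -0.07 and 0.645. Points share their library's depth and scaling, so the values are a description. Only 3 pairs passed 0.5, all among the granule cell genes: Gabra6 with Fat2 at 0.645, Fat2 with Cbln3 at 0.611 and Gabra6 with Cbln3 at 0.524. The other 25 pairs had a median of 0.174 and reached 0.393. Pearson correlation gave a median of 0.513 with 16 pairs above 0.5, and Spearman correlation without cocaine replicate 6 and saline replicate 8 a median of 0.084. Among the 3 granule cell genes the median stayed at 0.561 without these libraries, against 0.611 with them. With group means left in, the Spearman median over all 28 pairs was 0.088, from -0.26 to 0.681, and over the granule cell pairs 0.660. The ordering of low levels over ordinary libraries is thus shared within the granule cell genes, and little across the rest of the list.

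The same 3 pairs were also positively correlated in the other regions. Gabra6 with Fat2 had a Spearman correlation of 0.561 in AMY, 0.455 in Nac and 0.433 in PFC, and Gabra6 with Cbln3 of 0.533, 0.484 and 0.486. Fat2 with Cbln3 had 0.383, 0.295 and 0.319. The median over all 28 pairs was 0.114 in AMY, 0.089 in Nac and 0.049 in PFC.

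**Figure D3:**
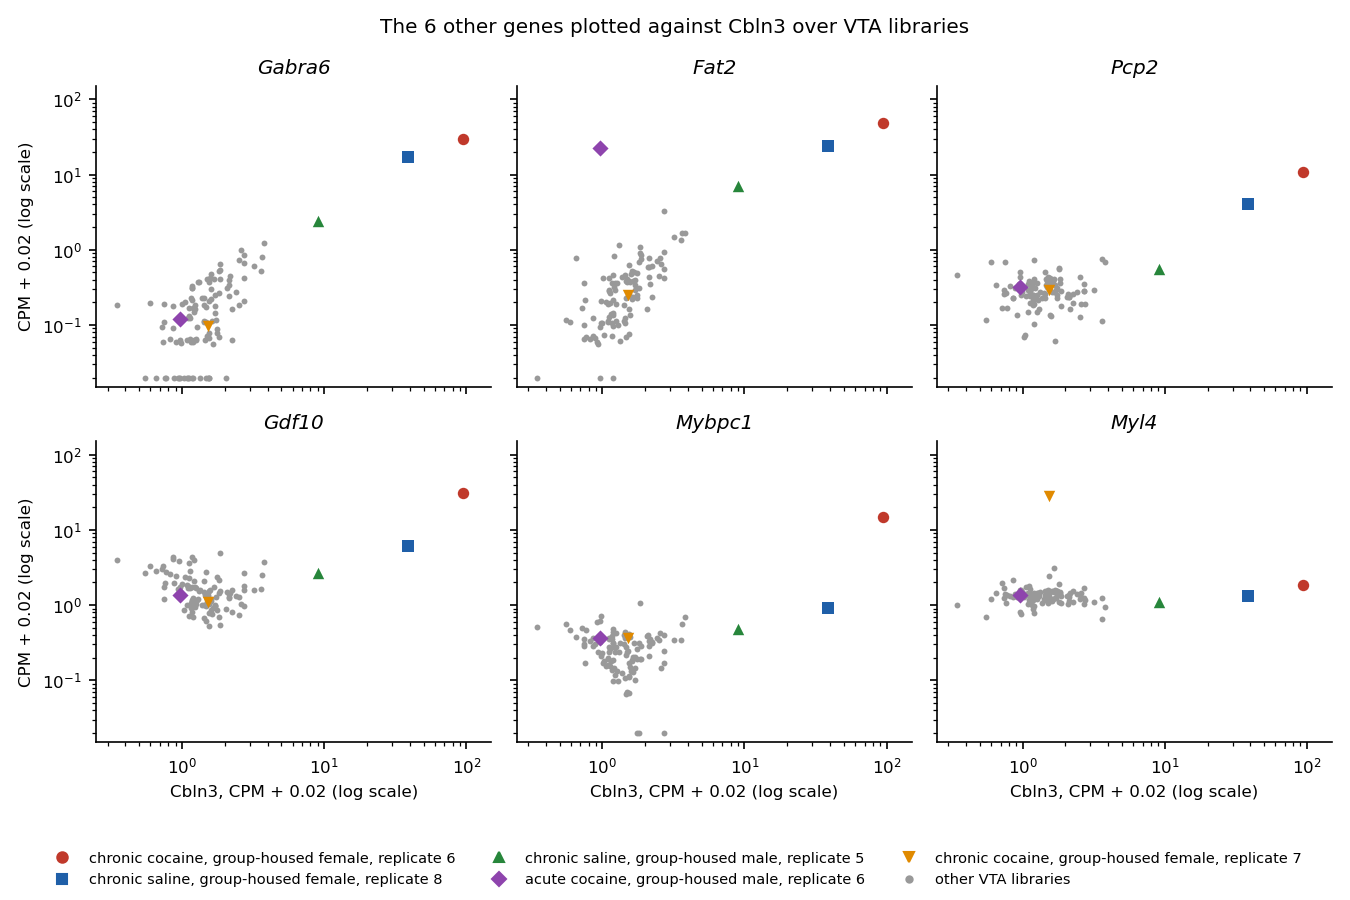
CPM of 6 of the other genes against CPM of Cbln3 in the VTA libraries (both axes log, 0.02 CPM added); each point is 1 library, with symbols for the 5 libraries described in the text. Cocaine replicate 6 and saline replicate 8 lie at the far right in every panel, and high on the vertical axis for Gabra6, Fat2 and Pcp2 but not for Myl4.

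The genes most like the 8 over VTA libraries, by Spearman correlation with their mean within groups over all VTA libraries, were Crabp2 at 0.506, Fibin at 0.502, Cdh1 at 0.457 and Zic1 at 0.447. H2-Q1, 1 of a family of near-identical genes and so uncertain, Nbl1, Slc22a3, Mgp, Foxc2 and Serinc2 followed between 0.440 and 0.443. The lowest were Mapk9 at -0.51, Plcxd2 at -0.50 and Rims1 at -0.47. All 17144 tested genes had a median of 0.008, and their 5th and 95th percentiles were -0.24 and 0.23. Serotonin neuron markers had a median of 0.344 over 4 genes and dopamine neuron markers of -0.22 over 10 genes (-0.34 to -0.11), so libraries with higher listed genes tended to hold more of the first and less of the second. Other granule cell genes had a median of 0.139 over 12 genes and other Purkinje cell genes of 0.159 over 14. The genes most like the 8 were not all high in cocaine replicate 6. Fibin was at 4.34 CPM and Mgp at 5.62 CPM there, below their VTA medians of 5.46 and 6.88 CPM. Crabp2 (0.706 CPM, median 0.599 CPM), H2-Q1, Nbl1, Slc22a3 and Foxc2 were less than 2-fold above theirs. Zic1 (62.0 CPM, median 5.77 CPM), Cdh1 (1.68 CPM, median 0.296 CPM) and Serinc2 (2.74 CPM, median 0.227 CPM) were over 2-fold above theirs. In saline replicate 8 each of these genes was above its median.

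The other regions hold some of the 8 genes at higher levels than the VTA. Median Gdf10 was 1.43 CPM in VTA, against 7.08 CPM in AMY, 5.58 CPM in Nac and 3.55 CPM in PFC, and it passed 1 CPM in every library of those 3 regions. Median Myl4 was 1.29 CPM in VTA, against 2.26 CPM in AMY, 0.831 CPM in Nac and 22.2 CPM in PFC. Median Mybpc1 was 0.260 CPM in VTA, against 0.558 CPM in AMY, 0.085 CPM in Nac and 2.54 CPM in PFC, where 110 of 112 libraries passed 1 CPM. By median, Myl4 and Mybpc1 were thus highest in the cortical libraries of this series, and Gdf10 in those of the amygdala.

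The granule cell genes and Crtam were low in all 4 regions. Median Cbln3 was 1.41 CPM in VTA, against 0.935 CPM in AMY, 0.422 CPM in Nac and 0.630 CPM in PFC. Median Fat2 was 0.260 CPM in VTA, against 0.231 CPM in AMY, 0.087 CPM in Nac and 0.200 CPM in PFC. Median Gabra6 was 0.127 CPM in VTA, against 0.131 CPM in AMY, 0.050 CPM in Nac and 0.056 CPM in PFC, so AMY was at the VTA's level. Median Pcp2 lay between 0.265 CPM in VTA and 0.364 CPM in PFC, and Crtam between 0.0976 CPM in VTA and 0 in PFC. The highest single values outside the VTA were 1.94 CPM for Gabra6, 2.05 CPM for Fat2, 4.55 CPM for Cbln3 and 2.56 CPM for Pcp2, all in AMY. Mybpc1 reached 24.9 CPM in 1 AMY library, above its VTA maximum. Gabra6, Fat2 and Cbln3 were all above 1 CPM in 4 VTA libraries, against 1 library in each of the other regions. At 0.5 CPM the count was 14 libraries in VTA, against 10 in AMY, 5 in Nac and 2 in PFC.

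**Figure D4:**
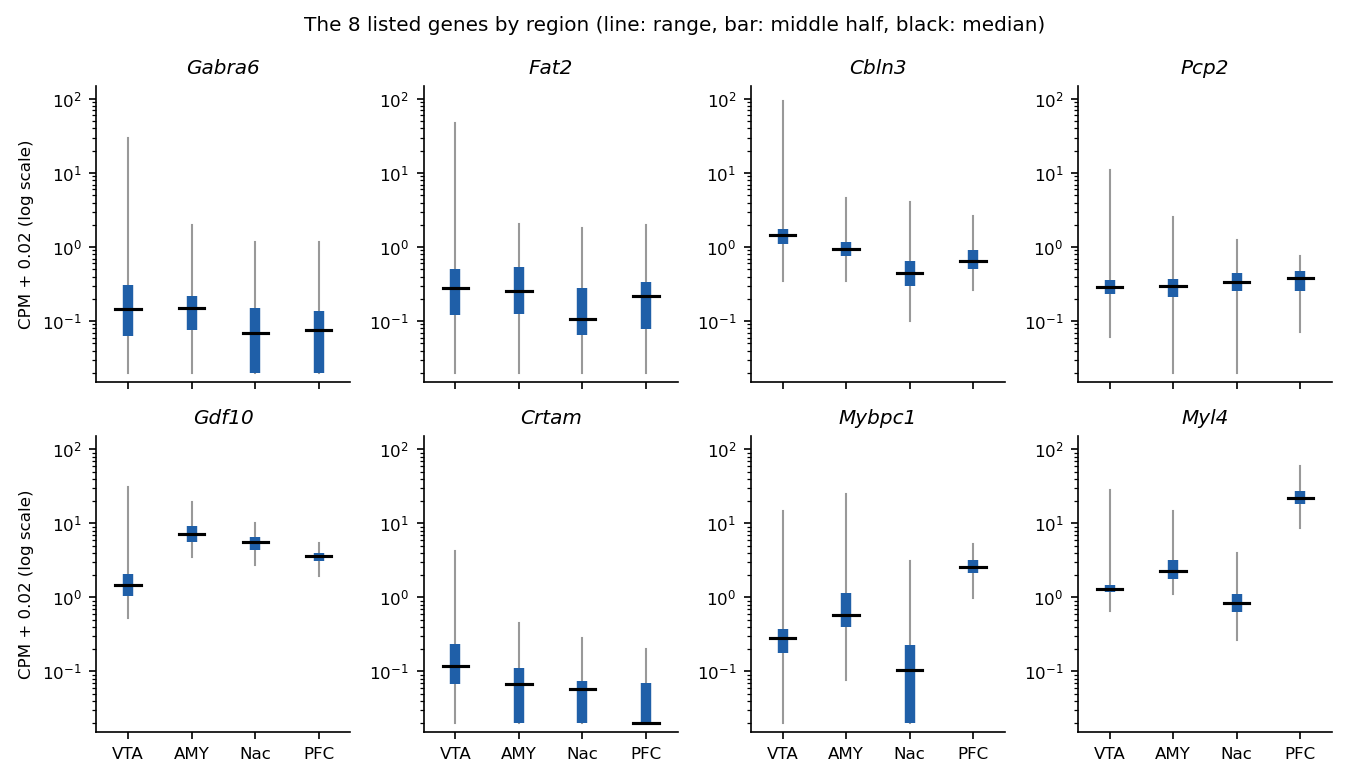
CPM of the 8 genes (log axis, 0.02 CPM added) in the VTA, AMY, Nac and PFC; thin lines span all libraries of a region, thick bars the middle 2 quartiles, and black bars are medians. The lines of Gabra6, Fat2, Cbln3, Pcp2, Gdf10 and Crtam reach highest in the VTA. By median, Myl4 and Mybpc1 are highest in PFC and Gdf10 in AMY.

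In the chronic VTA comparison that chose the genes, the arms overlapped for each of the 8. Gabra6 had a lowest, median and highest level of 0, 0.163 and 29.5 CPM in chronic cocaine libraries, and of 0, 0.208 and 17.3 CPM in chronic saline libraries. Cbln3 had 0.999, 1.59 and 93.9 CPM in cocaine and 1.01, 1.67 and 38.6 CPM in saline libraries. Fat2 had 0.0564, 0.347 and 47.8 CPM in cocaine and 0.0523, 0.400 and 24.2 CPM in saline libraries. The medians of the arms were thus close for these 3 genes, and the highest value lay in cocaine replicate 6 in the cocaine arm and in saline replicate 8 in the saline arm. Mybpc1 had 0, 0.188 and 14.8 CPM in cocaine and 0, 0.291 and 0.896 CPM in saline libraries, and Myl4 0.644, 1.23 and 28.0 CPM in cocaine and 0.994, 1.26 and 2.40 CPM in saline libraries. Of these 5 genes, Mybpc1 and Myl4 had a far library in the cocaine arm and none in the saline arm. In the acute arms Cbln3 had 0.632, 1.10 and 2.69 CPM in cocaine and 0.328, 1.13 and 2.23 CPM in saline libraries.

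Fitted over the 16 VTA groups with edgeR, the log2 difference of chronic cocaine from chronic saline had a median of 0.29 over the 8 genes, against 0.00 over all genes, and ran from -0.40 for Crtam to 0.59 for Mybpc1. The title numbers fall into series, and only the 1200 series holds both chronic arms, with 8 cocaine and 17 saline libraries, while the 500 series holds saline and the 1000 series cocaine. With number series as a covariate the median was 2.14, from 1.25 for Myl4 to 3.27 for Gabra6. Saline replicate 8 is in the 500 series, and cocaine replicates 6 and 7 are in the 1200 series.

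Much of the size of these values came from single libraries. Without cocaine replicate 6, the covariate fit gave 0.27 for Gabra6, 0.45 for Fat2, 0.15 for Cbln3, 0.36 for Pcp2, 0.33 for Gdf10, 0.26 for Mybpc1 and 1.37 for Myl4. Crtam lay between Fat2 and Myl4 there. Without cocaine replicate 7, the covariate fit gave -0.02 for Myl4 and 2.31 for Cbln3. Within the 1200 series alone, the log2 difference was 4.18 for Fat2, 3.05 for Cbln3 and 2.26 for Gdf10, and without cocaine replicate 6 it was 0.39, 0.17 and 0.30. In the fit without the covariate, leaving out cocaine replicate 6 gave a median of -0.48, leaving out saline replicate 8 gave 0.69, and leaving out both gave -0.15 over the 7 genes that then passed the filter on low counts. In that fit the direction of the chronic difference thus depends on which of these libraries enters. With the covariate the median stayed positive and its size varied. It ran from 0.25 without cocaine replicate 6 and saline replicate 8 to 2.27 without cocaine replicate 7.

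**Figure D5:**
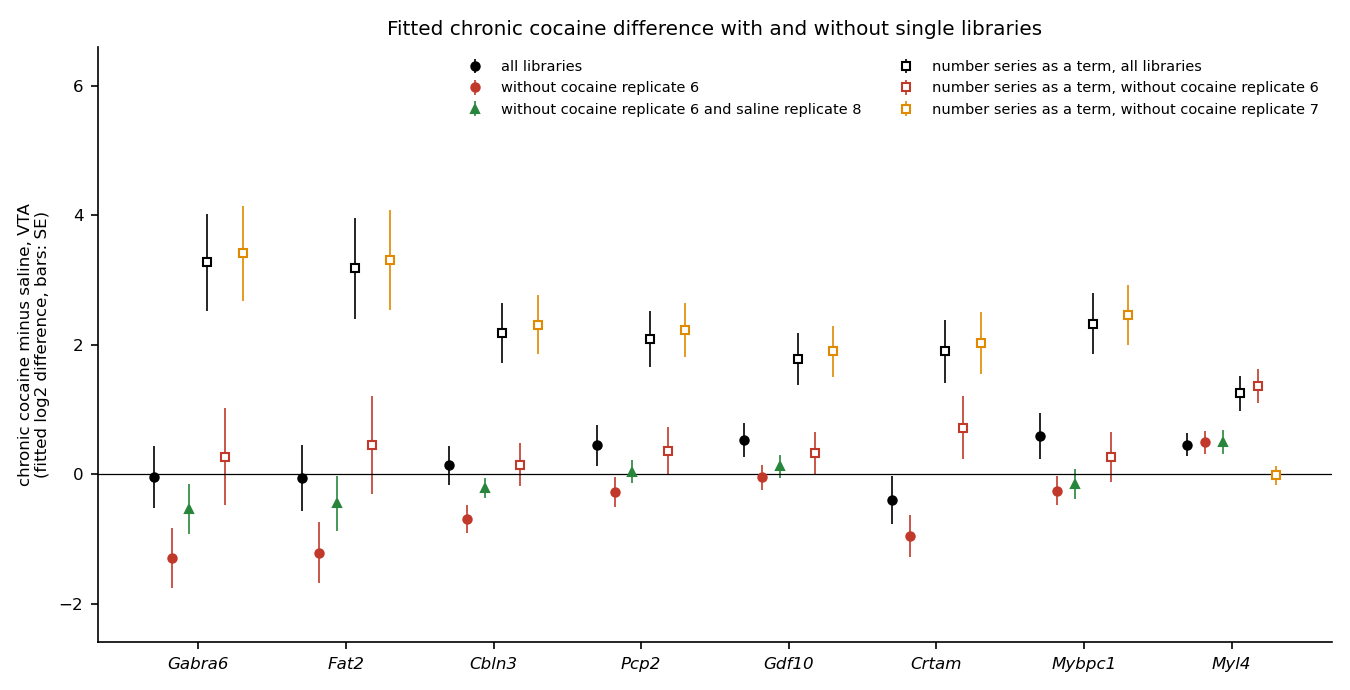
Log2 difference of chronic cocaine from chronic saline in the VTA for each of the 8 genes, fitted over all libraries or with number series as a covariate, each also without single libraries; symbols are fitted values and bars their SE, as a description with no test. With the covariate and all libraries the values lie between 1.25 and 3.27, and without cocaine replicate 6 those of the 7 genes other than Myl4 lie between 0.15 and 0.72.

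Acute cocaine against acute saline compares no library whose values chose the genes, and was tested with edgeR's quasi-likelihood test over 17144 genes. The filter on low counts and the spread were taken over all 16 groups, so the chronic libraries entered both. In the acute libraries alone Gabra6, Pcp2 and Crtam did not pass the filter, so their place in this test rests on chronic values. This contrast was not refitted in the acute libraries alone. In the acute contrast 0 of the 8 genes were called at an adjusted p of 0.05, as under DESeq2 and limma voom. For Gabra6, Pcp2 and Crtam this is a description and not a test. With edgeR, 0.0467% of all genes were called and 6.47% had an unadjusted p under 0.05. Fat2 had the largest log2 difference, 0.96 with an SE of 0.73 (edgeR adjusted p = 0.948), and its lowest, median and highest levels were 0, 0.170 and 22.3 CPM in cocaine and 0, 0.163 and 1.08 CPM in saline libraries. Its highest value is the single library described above. Crtam had -0.68 with an SE of 0.47, and the other 6 lay between -0.30 and 0.03. The median over the 8 was -0.11, against 0.00 over all genes. None of 12 other granule cell genes, 14 other Purkinje cell genes and 4 other Bergmann glia genes was called in this contrast. Slc17a7, 1 of 6 tested genes of a cortical glutamatergic neuron list, was called higher. Slc17a8, 1 of 4 serotonin neuron markers, was called lower.

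Housing and sex contrasts over all 16 VTA groups include the chronic libraries on which the genes were chosen, both high libraries among them, so those values are a description. Each was therefore also tested in the acute libraries alone, a fit chosen after seeing the data, in which 5 of the 8 genes passed the filter on low counts and Gabra6, Pcp2 and Crtam did not.

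For isolated against group-housed mice over all groups, all 8 fitted log2 differences were negative, with a median of -0.59 against 0.00 over all genes. Fat2 was lowest at -1.31 with an SE of 0.45, with levels of 0.0388, 0.283 and 3.23 CPM (lowest, median, highest) in isolated and 0, 0.222 and 47.8 CPM in group-housed libraries. The 5 libraries with single high values described above are all group-housed. Without cocaine replicate 6 and saline replicate 8 the median over 7 tested genes was -0.0007, with Gabra6 at 0.28 and Fat2 at -0.34. In the acute libraries alone, 0 of the 5 genes were called with edgeR, where 0% of 16883 genes were and 3.13% had an unadjusted p under 0.05. Fat2 had -1.10 there with an SE of 0.55 (edgeR adjusted p = 0.9998), with the acute cocaine library at 22.3 CPM in the group-housed arm, and the other 4 lay between -0.30 for Mybpc1 and 0.07 for Cbln3.

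For females against males over all groups, the fitted differences were positive for all 8, with a median of 0.35 against 0.00 over all genes, from 0.17 for Gdf10 to 0.78 for Gabra6 with an SE of 0.47. Gabra6 had a median of 0.107 CPM and a highest value of 29.5 CPM in females, against 0.146 CPM and 2.38 CPM in males. Without cocaine replicate 6 and saline replicate 8, both female, 6 of the 7 tested genes had negative differences, from -0.61 for Fat2 to -0.07 for Pcp2, and Myl4 had 0.22. In the acute libraries alone, 0 of the 5 genes were called with edgeR, where 0.172% of 16883 genes were and 7.74% had an unadjusted p under 0.05. Mybpc1 had -0.38 there with an SE of 0.18 (edgeR adjusted p = 0.637) and Fat2 -0.38 with an SE of 0.58 (edgeR adjusted p = 0.953), and the other 3 lay between -0.19 and 0.004.

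Chronic cocaine against chronic saline was also tested in the regions that did not choose the genes. In AMY 7 of the 8, all but Crtam, passed the filter on low counts and 0 were called, where 0.0518% of 17391 genes were. Values there lay between -0.51 for Gabra6 with an SE of 0.33 (edgeR adjusted p = 0.864) and 0.21 for Gdf10 with an SE of 0.13 (edgeR adjusted p = 0.838). In Nac 6, all but Gabra6 and Crtam, passed the filter and 0 were called, where 0.151% of 17266 genes were, with Mybpc1 at 0.92 and an SE of 0.50 (edgeR adjusted p = 0.302). The granule cell gene Fat2 had -0.65 with an SE of 0.40 in Nac (edgeR adjusted p = 0.353).

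In PFC, where Gabra6 and Crtam again did not pass the filter, 2 of 6 tested genes fell, both of the muscle type, while 7.12% of 17003 genes were called and 3.19% were called lower. Mybpc1 had a lowest, median and highest level of 0.951, 2.21 and 2.98 CPM in 28 chronic cocaine libraries, and of 1.22, 2.97 and 5.28 CPM in 26 chronic saline libraries. Its log2 difference was -0.51 with an SE of 0.11 (edgeR adjusted p = 0.00362). Myl4 had 8.64, 19.4 and 34.8 CPM in cocaine and 11.7, 24.3 and 58.8 CPM in saline libraries, a log2 difference of -0.31 with an SE of 0.10 (edgeR adjusted p = 0.0488). The arms overlap for both genes. Among all genes 668 of 17003, or 3.93%, were called higher. So were 2 of 11 other granule cell genes, Pax6 and Zic1, and 0 of 4 other Bergmann glia genes were called; Pax6 is named after its values were seen.

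Neither PFC difference remained within number series. With series as a covariate Mybpc1 had -0.13 and Myl4 -0.06 (edgeR adjusted p = 0.9999 for both), and 1 gene of the whole table was called. In the 1200 series, Mybpc1 averaged 2.34 ± 0.689 CPM in 8 cocaine libraries and 2.60 ± 0.762 CPM in 16 saline libraries (SD), and Myl4 20.7 ± 8.46 CPM in cocaine and 21.0 ± 5.87 CPM in saline libraries. The 1000 series, all cocaine, averaged 2.10 ± 0.468 CPM for Mybpc1 (n = 20), and the 500 series, all saline, 3.95 ± 0.795 CPM (n = 10), which lies above both arms of the 1200 series. Outside the 1200 series, chronic treatment and number series cannot be told apart.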

How the data were processed

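Libraries were made with a stranded polyadenylated RNA kit from 300 ng of RNA and read as single 50-base reads, per the labels' protocols. STAR, featureCounts and limma, and the builds GRCm38 and mm10, are named in the submitters' processing notes; for versions, annotation release and strand setting the entry is: not given in the sources used here. The values are whole-number read counts per gene as deposited by the authors, not normalized, in 1 table of 43346 genes over all libraries, totalling 11.21 to 52.34 M (mega-counts) per library; 884 rows without a symbol held 0.11% of counts. The 8 genes and the marker lists were chosen with earlier results of these data known.

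Per region, 16 group means were fitted with edgeR 4.0.16 (R 4.3.3; expression filter, TMM factors, quasi-likelihood test, Benjamini-Hochberg adjustment over all genes tested, threshold 0.05), with contrasts averaged over the groups of each arm; limma 3.58.1 (voom) and DESeq2 1.42.0 were alternatives, as were no filter, the number series of the titles as a covariate, and leaving out libraries. The leave-outs of named libraries, the fits of acute libraries alone and the values within series were chosen after seeing the data. Levels are CPM with TMM factors over all libraries (18627 genes, factors 0.842 to 1.08). Single-library differences add 0.1 CPM and use a 2-fold limit, and correlations use log2 CPM with a prior count of 2. Ratio intervals are exact 95% binomial intervals. Reads carry no molecular identifiers, so intervals cover counting error only. The scripts were tested on simulated counts. Other genes are named by 1 rule: up to 6 of a marker list, those most correlated with the 8 first, and the 10 genes most like and 3 least like the 8 over VTA libraries; exceptions are said to be named after their values were seen. Python 3.11.15 with numpy 2.4.6, pandas 2.3.3 and scipy 1.17.1 made the descriptions. The count of 1 marker list in PFC is not reported here.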

Additional observations from a re-analysis of the deposited data

Results flagged for a closer look

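Of 128 combinations of a VTA group and a gene, 68 had a library above 1 CPM, and in 32 of these the highest library stood apart from the rest of its group by Dixon's criterion. Its nominal share is about 1 of 20 groups (0.05) taken without regard to their values, and presumes normally spread values. These combinations were kept for a library above 1 CPM, and the genes were chosen on chronic VTA values, so the count is not to be read against that share. In the group-housed female chronic cocaine group, replicate 6 stood apart for Gabra6 (29.5 CPM), Fat2 (47.8 CPM), Cbln3 (93.9 CPM), Pcp2 (10.9 CPM), Gdf10 (31.1 CPM), Crtam (4.15 CPM) and Mybpc1 (14.8 CPM), and replicate 7 for Myl4 (28.0 CPM). In the group-housed female chronic saline group, replicate 8 stood apart for Gabra6 (17.3 CPM), Fat2 (24.2 CPM), Cbln3 (38.6 CPM), Pcp2 (4.06 CPM), Gdf10 (6.09 CPM) and Crtam (1.93 CPM). In the group-housed male chronic saline group, replicate 5 stood apart for Gabra6 (2.38 CPM), Fat2 (6.92 CPM), Cbln3 (9.03 CPM) and Gdf10 (2.69 CPM).

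Fat2 stood apart alone at 22.3 CPM in group-housed male acute cocaine replicate 6. Smaller gaps were found for Fat2 at 1.08 CPM in group-housed female acute saline replicate 4 and at 1.33 CPM in isolated male chronic saline replicate 6, and for Cbln3 at 2.57 CPM in isolated female acute cocaine replicate 8, 2.69 CPM in group-housed male acute cocaine replicate 5 and 2.23 CPM in isolated male acute saline replicate 5. In the isolated female chronic groups, replicate 7 of the cocaine group had Fat2 at 1.63 CPM and Cbln3 at 3.61 CPM, and replicate 7 of the saline group had Fat2 at 1.45 CPM and Cbln3 at 3.17 CPM, so these 2 genes stood apart in the same library in each. Myl4 stood apart at 3.09 CPM in group-housed male chronic cocaine replicate 5, at 2.40 CPM in isolated female chronic saline replicate 4 and at 1.91 CPM in isolated male chronic saline replicate 2. Gdf10 stood apart at 3.67 CPM in isolated male chronic cocaine replicate 4.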

How the results depend on the processing

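No listed gene was called in the acute, housing or sex contrasts of the VTA, or in AMY and Nac, under edgeR, DESeq2, limma voom, no filter, the series covariate, the acute libraries alone (housing and sex) or the leave-outs run. In PFC, 2 genes were called with edgeR, 1 with voom, 1 without a filter and 0 with the series covariate. Over all genes, acute cocaine gave 8 calls with edgeR, 18 with DESeq2 and 0 with voom or without a filter; housing gave 0 and 1 with DESeq2; sex gave 57, and 29 in the acute libraries alone. In AMY the count was 9, with 17 by DESeq2 and 2 with the covariate. In Nac it was 26, with 97 by DESeq2, 7 by voom, 13 without a filter, 1 with the covariate and 11 without 2 outlying libraries. In PFC it was 668 higher and 542 lower, 326 higher and 313 lower without a filter, and 1 higher and 0 lower with the covariate. Chronic VTA gave 14, 0 by voom, 5 with the covariate and 1 within the 1200 series; with a library left out the covariate fit gave 2 to 7 and the 1200 series 1 and 1, and without both high libraries the covariate fit gave 2.

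The median chronic VTA difference of the 8 genes was 0.29, 2.14 with the covariate and 2.65 within the 1200 series. It ran from -0.48 to 0.69 with 1 library left out, was -0.15 without both high libraries, and with the covariate was 0.35 without cocaine replicate 6, 2.07 without saline replicate 8, 2.27 without cocaine replicate 7 and 0.25 without both high libraries. Within the 1200 series it was 0.34 without cocaine replicate 6 and 2.82 without cocaine replicate 7. The median co-variation was 0.188 by Spearman, 0.088 by Spearman with group means left in, and 0.513 by Pearson. In the VTA 4 libraries held all 3 granule cell genes above 1 CPM and 14 above 0.5 CPM (1 and 10 in AMY, 1 and 5 in Nac, 1 and 2 in PFC).

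Differences that changed sign, none of them called, were as follows, and the cause was not tested. With the series covariate, acute Gabra6 was 0.034 and Cbln3 0.043; in AMY Pcp2 was 0.052 and Mybpc1 -1.16; in Nac Cbln3 was 0.10 and Myl4 0.19; in PFC Fat2 was 0.44, Cbln3 0.21 and Gdf10 -0.0052. With voom, acute Cbln3 was 0.026, housing Gabra6 0.28 and Fat2 0.066, sex Cbln3 -0.00070, Gdf10 -0.035 and Mybpc1 -0.0052, and Nac Myl4 0.071. Without the 2 high libraries, housing was 0.28 for Gabra6, 0.065 for Cbln3 and 0.035 for Gdf10, and sex was -0.22 for Gabra6, -0.61 for Fat2, -0.25 for Cbln3, -0.066 for Pcp2, -0.20 for Gdf10 and -0.24 for Mybpc1. With cocaine replicate 6, saline replicate 8 or cocaine replicate 7 left out in turn, sex ran from -0.23 to 0.37 for Fat2, -0.018 to 0.42 for Cbln3, -0.12 to 0.19 for Gdf10, -0.19 to 0.26 for Mybpc1 and -0.023 to 0.22 for Myl4. In the acute libraries alone, housing was 0.071 for Cbln3, and sex was -0.38 for Fat2, -0.051 for Cbln3, -0.19 for Gdf10 and -0.38 for Mybpc1. Nac Myl4 was 0.19 when the 2 outlying Nac libraries were left out. No VTA or AMY library stood apart, so this alternative was not run there. No paired analysis was possible because replicate numbers were given in accession order and name no shared source. A typical library held 2 to 6 reads of Gabra6, Fat2, Pcp2, Crtam and Mybpc1, which limits their folds.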
